A study of Mus musculus with 12 samples.

Results

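Of the 8003 genes in the blood table, 32 encode histones or high mobility group (Hmg) proteins, chosen by gene symbol alone. They fell into 21 replication histones (symbols beginning *Hist1h* to *Hist4h*), 4 variant histones (*H1f0*, *H2afx*, *H2afy* and *H3f3b*) and 7 Hmg genes (*Hmga1*, *Hmga1b*, *Hmga2*, *Hmgb2*, *Hmgn2*, *Hmgxb3* and *Hmgxb4*). The replication histones comprised 1 H1, 5 H2A, 6 H2B, 4 H3 and 5 H4 genes. RNA-seq was performed on blood of 3 control mice, labelled Normal and called Ctrl here, and 3 treated mice, called Akk, all C57BL/6 and 15 months old. The treatment is labelled Akk Membrane Protein, with 8 weeks as a sample characteristic but 6 weeks as the protocol, whereas the study's methods describe the living gut bacterium *Akkermansia muciniphila* given for 2 months and RNA from mice in which it had not settled in the gut. No transgene or mutant allele is named, and no label ties a sample to a sex, although the methods name both sexes. The same series holds hippocampus libraries, and its authors examined the Hmg family in blood for its part in inflammation and ageing. They reported it as lower in treated mice, also by quantitative RT-PCR, a separate assay that is not part of the values used here.

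Histones package DNA into nucleosomes, in which H2A, H2B, H3 and H4 form the core and H1 binds the linker. Replication histone genes are transcribed mainly in S phase, and their mRNAs usually end in a short stem-loop in place of a poly(A) tail, although some also yield polyadenylated transcripts in cells that have stopped dividing. Variant histones are made throughout the cell cycle from ordinary polyadenylated mRNAs, and Hmg proteins are abundant non-histone proteins that bend or loosen chromatin. Most white cells in circulating blood do not divide. These libraries were made from RNA purified with oligo(dT) beads, which retain RNA with a poly(A) tail.

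Because of that step, the stem-loop is shown first. A stem of 6 bases that begins GG, closed by a loop of 4 bases that begins TT, was searched in the GENCODE M21 transcripts (GRCm38), and the forms found in members are given 5′ to 3′ as DNA, with the stem in capitals and the loop in lower case.

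H1, H2A, H2B and H3 form: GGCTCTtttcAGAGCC

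H4 form of Hist1h4c, Hist1h4m and Hist1h4n: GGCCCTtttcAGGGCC

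H4 form of Hist1h4i and Hist2h4: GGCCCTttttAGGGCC

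H2afx form: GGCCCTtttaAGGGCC

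Of the 21 replication histones, 17 had such a stem-loop in an annotated transcript, 12 of them with the first form. In 6 genes it lay within 100 bases of an annotated 3′ end (*Hist1h2ad*, *Hist1h2ao*, *Hist1h2ap*, *Hist1h2bp*, *Hist1h4m* and *Hist1h4n*), compared with 26 of 21877 protein-coding genes (0.119%). In the other 11, the GENCODE transcript ran 155 to 2010 bases past it. *Hist2h4* was among these 11, with the stem-loop at chr3:96262939-96262954 on the minus strand and 1257 more bases after it. So was *Hist1h1c*, with the stem-loop at chr13:23739512-23739527 on the plus strand and 840 bases after it. The RefSeq models ended close past the same stem-loops, at 96262934 for *Hist2h4* and 23739531 for *Hist1h1c*, so the longer end of both depends on the annotation. No transcript of *Hist1h2bc*, the member with the highest level, held the stem-loop. Among variant histones only *H2afx* held it, 822 bases before the end, and none of the 7 Hmg genes did. Which transcript end the libraries captured was not measured by these gene-level values.

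The replication histones were clustered in the genome. On chromosome 13, 17 of them lay between 21754076 and 23739531, 3 lay on chromosome 3 between 96238479 and 96263317, and *Hist3h2a* lay on chromosome 11 (RefSeq positions, GRCm38). *Hist1h2ac* (H2A) and *Hist1h2bc* (H2B) were transcribed away from each other with starts 251 bases apart in GENCODE, and *Hist1h2bq* and *Hist1h2ao* with starts 268 bases apart. The interval between the starts of *Hist1h2ac* and *Hist1h2bc* lies within the RefSeq promoter window of *Hist1h2ac*, shown because this pair contains the most abundant member. The promoter of *Hist1h1c*, the second most abundant, and that of *Hmgb2* are shown beside it. Each runs from 250 bases before to 50 after the gene start in GRCm38.p6, on the gene's strand, with the CCAAT box, the TATA motif TATAAA and the octamer motif ATTTGCAT in capitals on either strand.

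Hist1h2ac, chr13:23683910-23684209, minus strand: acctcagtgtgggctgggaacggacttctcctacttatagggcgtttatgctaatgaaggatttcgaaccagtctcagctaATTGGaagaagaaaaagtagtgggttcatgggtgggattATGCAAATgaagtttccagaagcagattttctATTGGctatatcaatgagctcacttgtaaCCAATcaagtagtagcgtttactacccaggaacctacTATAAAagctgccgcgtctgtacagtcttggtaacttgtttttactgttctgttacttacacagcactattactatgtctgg

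Hist1h1c, chr13:23738557-23738856, plus strand: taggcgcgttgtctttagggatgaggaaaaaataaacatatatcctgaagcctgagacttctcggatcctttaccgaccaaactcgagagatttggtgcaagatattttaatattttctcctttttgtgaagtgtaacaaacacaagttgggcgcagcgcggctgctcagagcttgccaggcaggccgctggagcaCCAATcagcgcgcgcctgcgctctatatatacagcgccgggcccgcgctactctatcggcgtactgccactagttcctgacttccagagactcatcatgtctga

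Hmgb2, chr8:57511593-57511892, plus strand: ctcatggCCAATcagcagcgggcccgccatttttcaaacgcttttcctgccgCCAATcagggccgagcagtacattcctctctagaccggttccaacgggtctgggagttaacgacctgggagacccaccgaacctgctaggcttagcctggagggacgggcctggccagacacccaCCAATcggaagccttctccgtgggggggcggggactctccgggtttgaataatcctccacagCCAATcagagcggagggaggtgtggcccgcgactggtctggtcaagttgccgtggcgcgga

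The *Hist1h2ac* window held CCAAT 3 times and TATAAA and the octamer 1 time each. *Hist1h1c* held CCAAT 1 time, and *Hmgb2* held it 4 times without the other motifs. A promoter sequence was matched for 19 replication histones, 3 variant histones and 6 Hmg genes. CCAAT was present in 16 of the 19 replication histone promoters (84.2%) against 41.1% of all 27025 promoters, TATAAA in 10 (52.6%) against 15.7%, and the octamer in 4 (21.1%) against 1.97%. All H1, H2A, H2B and H3 promoters matched held CCAAT, whereas 1 of 4 H4 promoters did. Of the Hmg promoters, 3 of 6 held CCAAT. These are matches of letters, and binding was not measured.

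The libraries differed in scale before any comparison of groups. Values are FPKM, which are fragments per kilobase of transcript relative to the mapped fragments of the library, and so are given per length. The median over the table was 1.41 in Ctrl 1 and between 0.18 and 0.35 in the other 5 libraries, and Ctrl 1 held the highest deposited value for 98.2% of all genes and for 26 of the 32 members. Each library was therefore divided by its own median and multiplied by a common factor (scaled FPKM). Main results are also given without Ctrl 1 or without scaling. The table itself holds the genes that the authors called as differing between the same libraries, so the members were selected on this contrast. Scaling on the median of these genes removes a difference that most of them share. A general fall in Akk and a difference in library scale therefore cannot be told apart, and scaled values show only differences relative to the table. In whole blood, fewer cells of a type and less RNA per cell cannot be told apart. Neutrophil markers (11 of 13 listed, *S100a8* and *S100a9* among them) summed to 324 to 411 scaled FPKM in Ctrl and 155 to 662 in Akk, and platelet markers (6 of 6, *Pf4* and *Ppbp* among them) to 441 to 694 and 415 to 823. Of the neutrophil markers, 8 had a negative log2 fold change of Akk against Ctrl and 3 a positive one, with a median of -0.53. Both *S100a8* and *S100a9* were among the positive ones. For platelets, 2 were negative and 4 positive, with a median of 0.10. No listed marker of blood cells was at 0 in any library, and red cell genes were not analysed here.

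**Figure D1:**
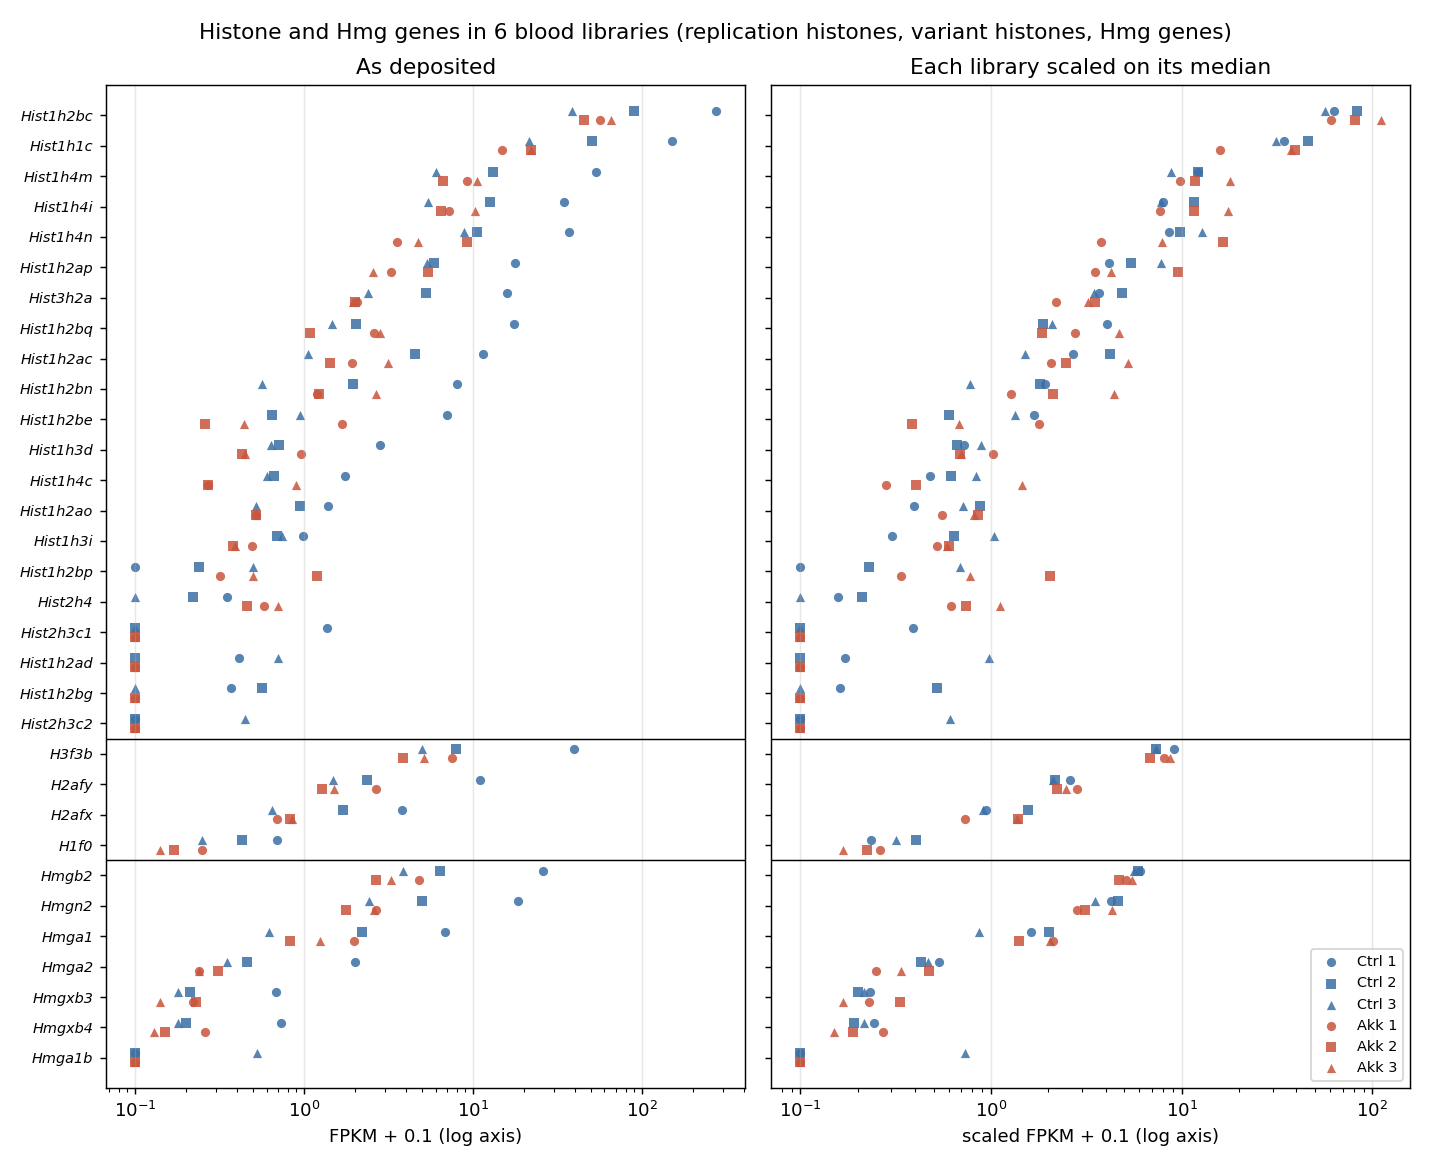
Level of each of the 32 members in each blood library, as deposited FPKM (left) and after scaling each library on its median (right), both plus 0.1 on a log axis, with blue for Ctrl, red for Akk and a symbol for each replicate number. On the left, Ctrl 1 lies to the right for 26 members, and on the right most groups overlap, with *Hist2h4* and *Hmgb2* as the members whose groups do not.

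No member passed the test between Akk and Ctrl. With limma on log2(scaled FPKM + 0.1), counting a gene as called from a 1.5-fold change with a Benjamini-Hochberg adjusted p not above 0.05 over all genes, 0 of 32 members were called in either direction, against 0 of 8003 genes (0%). At an unadjusted p under 0.05, 2 members were higher in Akk (*Hist2h4* and *Hist1h2bp*) and 0 were lower, against 0.612% and 3.4% of all genes (4.01% in both directions together). Without scaling the count was different, since 5 members had an unadjusted p under 0.05 against 3.45% of all genes, with 0 past the adjusted threshold. These were *Hist1h2ad*, *Hist1h2bg*, *Hist2h3c1*, *Hist2h3c2* and *Hmga1b*. Each was at 0 in all 3 Akk libraries and in at least 1 Ctrl library. They were listed through Ctrl values alone and could only come out lower in Akk, so their direction is no result. The groups did not overlap for *Hist2h4*, which was higher in Akk (2.94% of all genes), and for *Hmgb2*, which was lower (4.95%). Without Ctrl 1, 0 members were called, and *Hist2h4* and *H1f0* had an unadjusted p under 0.05, as had 4.37% of all genes.

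The 3 classes had similar median differences and a different spread. The median log2 fold change (Akk against Ctrl, scaled) was -0.04 for replication histones, 0.0058 for variant histones and -0.20 for Hmg genes, with -0.03 for the whole table, a value largely set by the scaling itself. Negative values were found in 11 of 21, 2 of 4 and 5 of 7 members, respectively. These small medians changed sign with the treatment of the values. With log2 values centred on the library median they were -0.0127, -0.17 and 0.11, with 0.0446 for the table, and the replication histones with a mean FPKM of at least 1 had a median of 0.20. By type, the medians were -0.37 for the single H1 gene, -0.10 for H2A, 0.25 for H2B, -0.35 for H3 and 0.22 for H4. Without Ctrl 1 they were -0.41, -0.31, 0.40, -0.25 and 0.28, and without scaling they were all negative, from -1.50 for H1 to -0.87 for H2B. The median standard deviation between mice of 1 group, on the log2 scale, was 0.64 for replication histones, 0.27 for variant histones and 0.35 for Hmg genes, with 0.32 for the whole table. Among the 11 replication histones with a mean FPKM of at least 1 it was 0.63, against 0.34 for the 2366 genes of the table above the same level. The differences between classes were not tested.

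Without scaling, 30 of the 32 members and 7965 of 8003 genes had a lower mean in Akk. The unscaled medians were -0.93 for replication histones, -1.09 for variant histones and -0.80 for Hmg genes, beside -0.87 for the whole table. On the deposited FPKM the groups did not overlap for *Hist3h2a*, *Hist1h3i* and *Hmga2* (lower in Akk, 15.4% of all genes) and for *Hist2h4* (higher, 0.175%). Leaving out Ctrl 1 with scaling gave -0.12, 0.0038 and -0.17 for the 3 classes and -0.02 for the table.

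**Figure D2:**
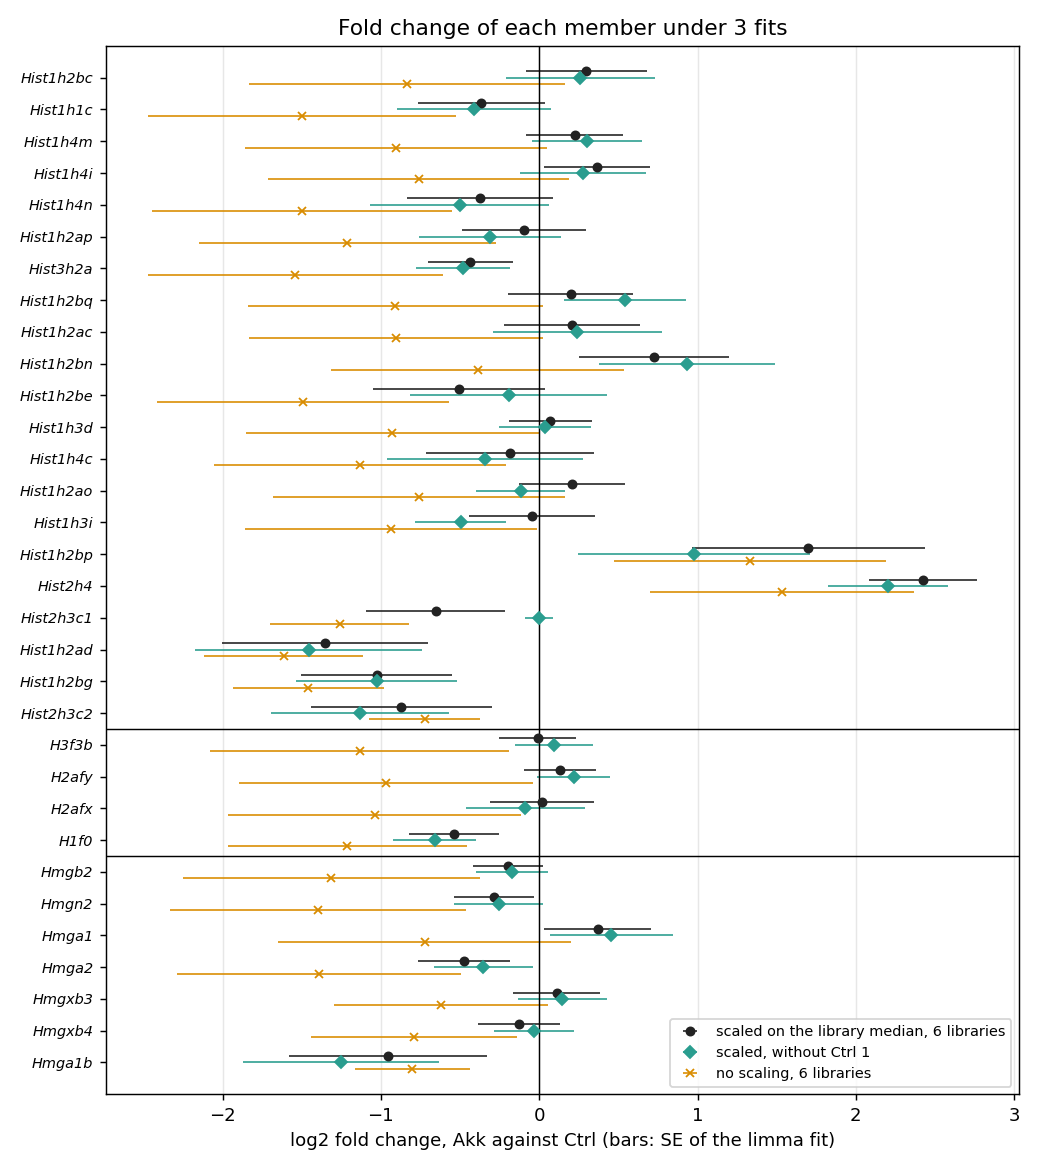
Log2 fold change of each member, Akk against Ctrl, with the standard error of the limma fit, for the scaled libraries (black), the scaled libraries without Ctrl 1 (green) and the unscaled libraries (orange), with lines between replication histones, variant histones and Hmg genes. The unscaled values lie below 0 for 30 of 32 members, and the scaled values lie on both sides of 0.

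*Hist2h4* (gene 97122), an H4 gene of the chromosome 3 cluster, had the lowest p of all 8003 genes. Its deposited FPKM was 0.25, 0.12 and 0 in Ctrl 1 to 3, and 0.48, 0.36 and 0.60 in Akk 1 to 3. After scaling, these were 0.057, 0.11 and 0 against 0.52, 0.64 and 1.02. All 3 Akk libraries were above all 3 Ctrl libraries on both scales. The log2 fold change was 2.42 (SE 0.34, n = 3 per group), with a limma adjusted p of 0.264, and the exact permutation p was 0.1, the smallest that 3 against 3 allows. Leaving out each library gave 2.18 to 2.66, and without scaling it was 1.53 with an adjusted p of 0.487.

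The level of *Hist2h4* was low. Its 5 values above 0 were whole multiples of 0.12 FPKM, namely 2, 1, 4, 3 and 5 of them, within 0.01 FPKM per step. The fold change therefore depended on the pseudocount, with 0.70 at a pseudocount of 1 and 4.03 at 0.01. Centring log2 values in place of scaling gave 2.45 with an adjusted p of 0.0102, the only gene called in that fit (0.0125% of all genes). Over the alternatives its adjusted p ran from 0.0102 to 0.590. No other transcript matched that of *Hist2h4* at 95% identity over at least 50% of its length. That transcript had 1630 bases, 1257 of them after the stem-loop, so a match up to the stem-loop alone could not reach 50%. Sharing of reads with other H4 genes was therefore not tested.

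None of the other 4 H4 genes had an unadjusted p under 0.05, and their difference from *Hist2h4* was not tested. *Hist1h4m* had 12.1, 12.1 and 8.65 scaled FPKM in Ctrl and 9.71, 11.6 and 17.8 in Akk, so that the groups overlapped (log2 0.22, SE 0.30). *Hist1h4i* had 7.88, 11.5 and 7.73 in Ctrl and 7.63, 11.4 and 17.3 in Akk (log2 0.37, SE 0.34). *Hist1h4n* had 8.44, 9.66 and 12.8 in Ctrl and 3.69, 16.3 and 7.79 in Akk (log2 -0.38, SE 0.46). The highest value of *Hist1h4m* and *Hist1h4i* was in Akk 3 and that of *Hist1h4n* in Akk 2. *Hist1h4m* and *Hist1h4n* are near-identical, so reads may have been divided between them by the counting, and their ratio within a library ranged from 0.380 to 1.48. *Hist1h4c* was lower in level, with 0.18 to 1.36 scaled FPKM and overlapping groups.

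Linker histone *Hist1h1c* (H1.2) and core histone *Hist1h2bc* carried most of the replication histone signal. Together they held between 63.4% and 70.3% of the FPKM of the 21 genes in every library, and *Hist1h4i*, *Hist1h4m* and *Hist1h4n* held a further 18.1% to 21.4%. *Hist1h2bc* had 62.9, 82.7 and 56.3 scaled FPKM in Ctrl and 60.3, 80.9 and 112 in Akk (log2 0.30, SE 0.38). *Hist1h1c* had 34.4, 46.2 and 31.3 in Ctrl and 15.8, 39.4 and 37.2 in Akk (log2 -0.37, SE 0.40). Neither difference exceeded the spread between mice, and the groups overlapped for both.

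The ratio of both genes within a library does not depend on the scaling. *Hist1h2bc* was 1.83, 1.79 and 1.80 times *Hist1h1c* in Ctrl 1 to 3, and 3.82, 2.05 and 3.00 times in Akk 1 to 3. The Ctrl ratios were close together although Ctrl 1 differed most in level, and all Akk ratios were above them (exact permutation p = 0.1, the smallest possible). This pair was singled out after its values were seen. Over the 17 members with a mean FPKM of at least 1 there were 136 pairs, of which 12 (8.82%) had ratios that did not overlap between groups, 3 of them among the 16 pairs with *Hist1h1c*.

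**Figure D3:**
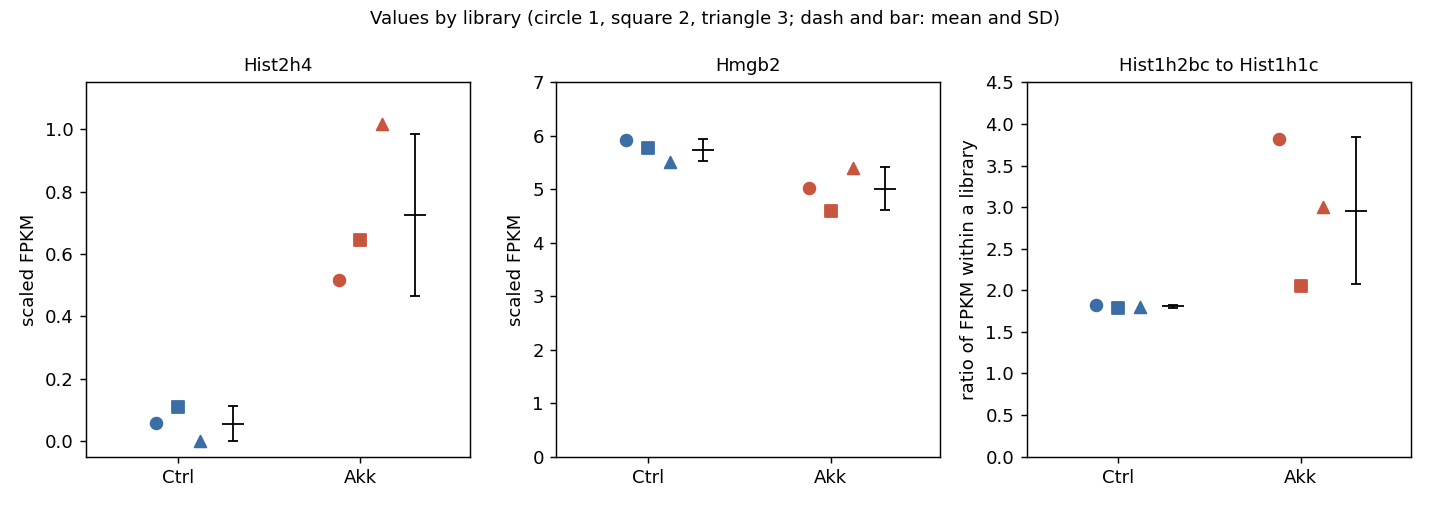
Scaled FPKM of *Hist2h4* (left) and *Hmgb2* (middle) and the ratio of *Hist1h2bc* to *Hist1h1c* within each library (right), with a point for each library and a dash and bar for the mean and SD of 3. The groups do not overlap in any panel, and the Ctrl ratios of 1.79 to 1.83 lie close together while the Akk ratios run from 2.05 to 3.82.

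Among the remaining H2A and H2B genes, those with a mean FPKM of at least 1 had fold changes of both signs, and none passed the test. *Hist1h2bn* had the highest log2 fold change of these, 0.72 (SE 0.47), from 1.82, 1.70 and 0.67 scaled FPKM in Ctrl and 1.18, 2.02 and 4.32 in Akk, and leaving out 1 library gave 0.25 to 1.14. *Hist1h2be* had the lowest, -0.51 (SE 0.54), from 1.57, 0.51 and 1.23 in Ctrl and 1.70, 0.29 and 0.58 in Akk, and leaving out 1 library gave -1.11 to -0.0039, with -0.19 without Ctrl 1. *Hist3h2a*, an H2A gene outside both clusters, had 3.58, 4.77 and 3.35 in Ctrl and 2.10, 3.42 and 3.13 in Akk (log2 -0.43, SE 0.27), and its highest Akk value lay just above its lowest Ctrl value. *Hist1h2ac*, which shares its promoter interval with *Hist1h2bc*, had 2.61, 4.09 and 1.40 in Ctrl and 1.95, 2.36 and 5.12 in Akk. The deposited level of *Hist1h2bc* was 20.2 to 40.1 times that of *Hist1h2ac* across libraries. *Hist1h2ap* and *Hist1h2bq* had log2 fold changes of -0.10 (SE 0.39) and 0.20 (SE 0.39).

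Several replication histones were listed at 0 in most libraries. *Hist1h2bg* (H2B) was listed at 0.27 and 0.46 FPKM in Ctrl 1 and Ctrl 2 and at 0 in the other 4 libraries. *Hist2h3c1* (H3) was listed at 1.27 FPKM in Ctrl 1 alone, and without that library its fold change was 0. *Hist1h2ad* had 0.31 and 0.60 FPKM in Ctrl 1 and Ctrl 3 and *Hist2h3c2* had 0.35 in Ctrl 3, with 0 elsewhere. These 4 genes were at 0 in all 3 Akk libraries, and each was at 0 in at least 1 Ctrl library. Conversely, *Hist1h2bp* was at 0 in Ctrl 1 only, with 0.14 and 0.40 FPKM in the other Ctrl libraries and 0.22, 1.09 and 0.40 in Akk (log2 1.70, SE 0.74, limma adjusted p = 1.00). Without Ctrl 1 the value of *Hist1h2bp* was 0.98. Of these genes, *Hist1h2bg* and *Hist1h2bp* each had transcripts near-identical to 10 or more other genes. In all, 12 of the 21 replication histones had such a partner over at least 50% of their own longest transcript. *Hist1h2bc*, *Hist1h2be* and *Hist1h3d* had none by that measure. However, *Hist1h2bc* and *Hist1h2be* were themselves partners of *Hist1h2bg*, *Hist1h2bn* and *Hist1h2bp*, and *Hist1h3d* was a partner of *Hist1h3i*. The separate values of all these genes, *Hist1h2bc* included, are uncertain.

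Among the members, the H3 genes were the lowest of the core histones. Summed over 4 genes, they reached 1.08 to 2.24 scaled FPKM per library, compared with 21.7 to 45.3 for the 5 H4 genes and 60.8 to 122 for the 6 H2B genes. *Hist1h3d* had 0.62, 0.56 and 0.79 in Ctrl and 0.92, 0.59 and 0.59 in Akk. *Hist1h3i* had 0.20, 0.54 and 0.94 in Ctrl and 0.42, 0.50 and 0.49 in Akk. Both sets overlapped.

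**Figure D4:**
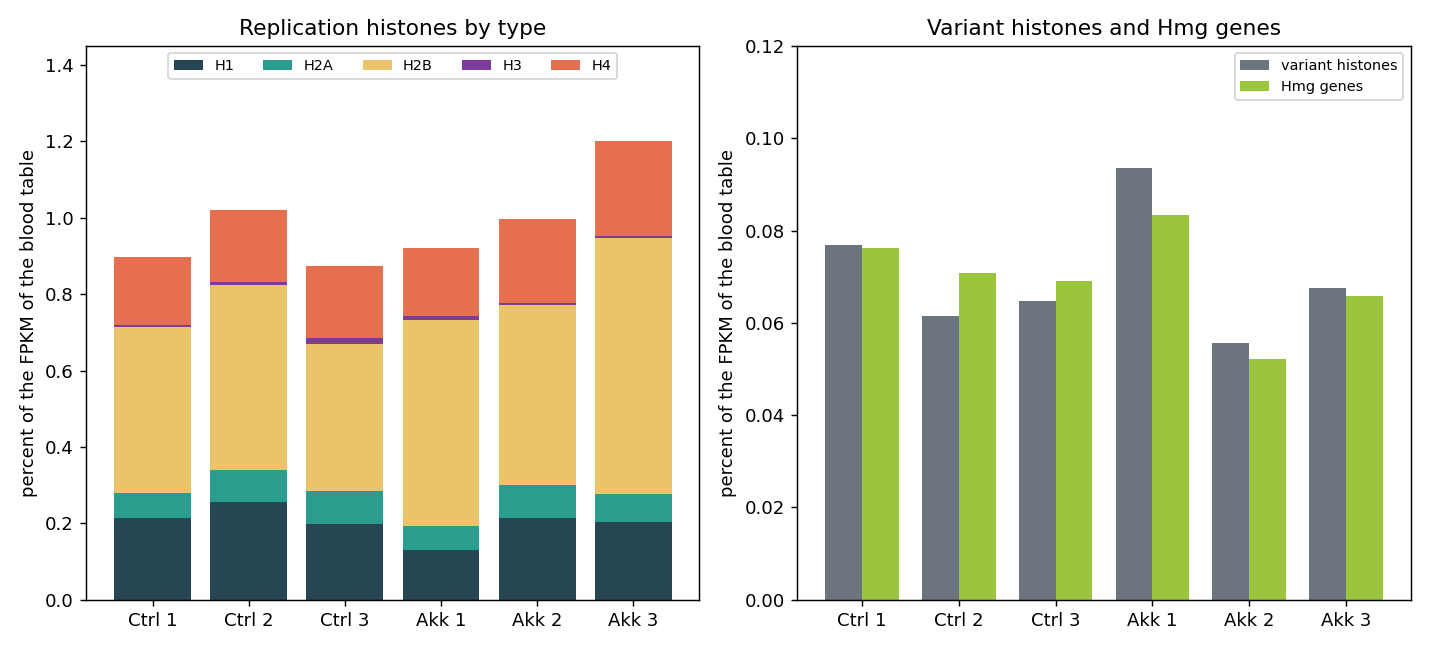
Share of the FPKM of the blood table held by replication histones, stacked by histone type (left), and by variant histones and Hmg genes (right), per library, in percent and therefore without scaling. Replication histones hold between 0.873% and 1.20% in all 6 libraries, and the groups overlap for each of the 3 classes.

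As a share of all FPKM in the table, which needs no scaling, replication histones held 0.898%, 1.02% and 0.873% in Ctrl and 0.921%, 0.997% and 1.20% in Akk. Variant histones held 0.0556% to 0.0936% and Hmg genes 0.0521% to 0.0834% over the 6 libraries. The groups overlapped for all 3 classes.

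The 3 variant histones with a mean FPKM of at least 1 differed by at most 0.13 on the log2 scale between groups. *H3f3b*, which encodes H3.3, the H3 variant deposited outside replication, had 8.97, 7.21 and 7.20 scaled FPKM in Ctrl and 7.95, 6.73 and 8.54 in Akk (log2 -0.01, SE 0.24). In every library its level was above that of the 4 replication H3 genes summed. *H2afy*, encoding macroH2A1, a variant of silent chromatin, had 2.48, 2.07 and 2.02 in Ctrl and 2.74, 2.11 and 2.39 in Akk (log2 0.13, SE 0.23). *H2afx*, whose product is phosphorylated beside DNA double-strand breaks, had 0.84, 1.46 and 0.80 in Ctrl and 0.63, 1.29 and 1.27 in Akk (log2 0.02, SE 0.33). The groups of all 3 genes overlapped.

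*H1f0*, the linker histone variant H1.0 of differentiated cells, was the variant with the largest difference and the lowest level. Its scaled FPKM was 0.13, 0.30 and 0.22 in Ctrl and 0.16, 0.13 and 0.068 in Akk, with Akk 1 above the lowest Ctrl library. The log2 fold change was -0.54 (SE 0.28), and without Ctrl 1 it was -0.66 (SE 0.26) with a limma adjusted p of 1.

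*Hmgb2*, an HMG-box protein that bends DNA and can act outside the cell as a danger signal, had the highest mean of the Hmg genes. Its deposited FPKM was 25.96, 6.28 and 3.77 in Ctrl and 4.68, 2.57 and 3.19 in Akk, and Akk 1 was above Ctrl 3. After scaling it was 5.93, 5.78 and 5.52 in Ctrl and 5.02, 4.60 and 5.41 in Akk, so that all 3 Akk libraries were below all 3 Ctrl libraries, Akk 3 only just. The log2 fold change was -0.20 (SE 0.22), with a limma adjusted p of 1.00 and an exact permutation p of 0.1, the smallest possible. It was -0.17 without Ctrl 1 and -1.31 (SE 0.94, limma adjusted p = 0.487) without scaling. The NK cell markers (4 of 4 listed) also summed lower in Akk, with 10.3 to 12.4 scaled FPKM against 12.8 to 22.6 in Ctrl, although *Klrb1c* and *Nkg7* overlapped between groups. The 5 monocyte markers had a median log2 fold change of -0.70, which was -0.37 without Ctrl 1. Their sums overlapped, with 18.7 to 52.2 in Ctrl and 11.2 to 23.7 in Akk. T cell sums also overlapped, and the B cell markers (2 of 6 listed) had a median of 0.41. The part of these cells in the value of *Hmgb2* was not tested.

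*Hmgn2*, which binds nucleosomes directly, had 4.17, 4.52 and 3.41 scaled FPKM in Ctrl and 2.74, 3.00 and 4.24 in Akk (log2 -0.29, SE 0.25). The AT-hook gene *Hmga1* had 1.53, 1.92 and 0.76 in Ctrl and 2.02, 1.31 and 1.95 in Akk (log2 0.37, SE 0.34). Its relative *Hmga2* had 0.43, 0.33 and 0.37 in Ctrl and 0.15, 0.38 and 0.24 in Akk (log2 -0.47, SE 0.29). All 3 overlapped between groups. *Hmga1b* was listed at 0.43 FPKM in Ctrl 3 and at 0 in the other 5 libraries, and its transcript is near-identical to that of *Hmga1*. *Hmgxb3* and *Hmgxb4*, which encode proteins with an HMG box, were low, between 0.051 and 0.23 scaled FPKM, with log2 fold changes of 0.11 (SE 0.27) and -0.13 (SE 0.26).

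Genes that process histone mRNA or handle histone proteins were compared with the same fit. Of 18 genes of histone mRNA 3′ end formation and decay, such as *Slbp*, which binds the stem-loop, and *Npat*, 13 were tested, with 0 past the test in either direction, 9 negative and 4 positive values and a median of -0.09. The groups of *Upf1*, a helicase of histone mRNA decay, did not overlap, as for 4.95% of all genes lower in Akk. It had 0.49, 0.50 and 0.50 scaled FPKM in Ctrl and 0.46, 0.38 and 0.29 in Akk (log2 -0.34, SE 0.25), although its deposited values overlapped. Of 31 chaperones and related genes, 18 were tested, with 0 past the test, 7 negative and 11 positive values and a median of 0.14. Their summed level was 18.5 to 19.7 scaled FPKM in Ctrl and 21.05 to 22.4 in Akk, without overlap, whereas on deposited FPKM the sums overlapped, with 12.8 to 80.8 in Ctrl and 11.95 to 20.8 in Akk. *Nap1l1*, an H2A and H2B chaperone, was the 1 gene of that list whose groups did not overlap, with 6.40, 7.63 and 6.75 scaled FPKM in Ctrl and 8.84, 8.60 and 9.22 in Akk (log2 0.36, SE 0.23), as for 2.94% of all genes higher in Akk. Its deposited values overlapped, and without scaling its log2 fold change was -0.76. *Nap1l1* also had the highest level of that list in every library, so it weighed most in the sums. The sums were not compared without it, and their separation is not shown for the list as a whole. Of 32 genes of S phase and mitosis, 10 were tested (among them *Mcm3*, *Plk1* and *Aurkb*), with 0 past the test, 9 negative values and a median of -0.07. *Cdc6*, which loads the replicative helicase, was listed at 0.10, 0.08 and 0.02 FPKM in Ctrl and at 0 in all 3 Akk libraries. It was thus listed through Ctrl values alone and could only come out lower. Its unadjusted p in the limma fit was 0.016 (adjusted 0.999966), where 3.4% of all genes were lower with an unadjusted p under 0.05. Of 7 receptors and partners of extracellular Hmgb1, 4 were tested (*Tlr2*, *Tlr4*, *Tlr9* and *Havcr2*), with 0 past the test and a median of -0.33, which was 0.0397 without Ctrl 1. The groups of *Havcr2* did not overlap, as for 4.95% of all genes lower in Akk. It had 0.31, 0.31 and 0.28 scaled FPKM in Ctrl and 0.25, 0.089 and 0.27 in Akk, although its deposited values overlapped. *Hmgb1* itself was not analysed here.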

How the data were processed

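Blood RNA of 6 mice was sequenced on BGISEQ-500 after oligo(dT) purification. Per the study's methods, reads were mapped with HISAT2 and Bowtie2 and quantified with RSEM, whereas the submitters' processing notes name TopHat2, Cufflinks and GRCm38. The authors deposited FPKM per gene, rounded to 2 decimals, 1 column per library. Read depth is unknown. No label states the batch of a library, and each library is labelled as a separate sample, so p-values measure the spread between these samples.

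Members were matched by symbol. The members, classes and 12 gene lists were chosen with earlier results of these data known. Each library was divided by its median FPKM and multiplied by the geometric mean of the 6 medians. log2(scaled FPKM + 0.1) was fitted with limma 3.58.1 in R 4.3.3 (intensity trend, Benjamini-Hochberg over 8003 genes), and fold changes are on that scale, which understates changes of low genes. In simulated data for this comparison, with 200 of 8003 genes drawn at random and changed, 0% were recovered at 2-fold, 85% at 4-fold and 97% at 8-fold. Among the unchanged genes, 0, 9 and 9 were called, respectively. Recovery was not measured for the members. Replication histones had a wider spread than the whole table (median SD 0.64 against 0.32), so these shares do not apply to them. Single values were compared by two-sided exact permutation tests. Genes named by rule were the markers, all variant histones, all Hmga, Hmgb and Hmgn genes, and per class the 3 highest and lowest fold changes at a mean FPKM of at least 1 and the 3 highest means. *Hist1h2bp*, *Hist1h2ac*, *Hist1h2ad*, *Hist1h2ao*, *Hist1h2ap*, *Hist1h2bq*, *Hist1h3d*, *Hist1h3i*, *Hist1h4c* and *Hist2h3c2*, and the list genes given with values, were chosen after their values were seen. Same-numbered Ctrl and Akk libraries had correlations of -0.08, -0.05 and -0.14 between their deviations from the group means, so the numbers were not treated as pairs. Transcripts were compared with blastn 2.17.0. Symbols, positions and promoters came from RefSeq (GRCm38.p6) and GENCODE M21.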

Additional observations from a re-analysis of the deposited data

Results flagged for a closer look

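In the hippocampus table of 284 genes, which no comparison above used, 6 replication histones were listed, and *Hist1h2ap* and *Hist1h2bq* were the ones also listed in blood. *Hist1h2ap* had 2, 0.44 and 0.06 FPKM in Ctrl and 2.09, 2.02 and 3.32 in Akk, a mean of 2.48 against 0.833, and drew attention because it lay above the control libraries in every treated one, Akk 2 only just above Ctrl 1. The value was not tested, and that table too was selected on the same contrast. *Hist1h2ap* is near-identical to 8 other genes. In blood its groups overlapped. The remaining genes, *Hist1h4h*, *Hist1h4k*, *Hist2h2aa2* and *Hist2h3b*, were between 0 and 3.84 FPKM with overlapping groups. No group of blood libraries was large enough for a test of single outlying samples.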

How the results depend on the processing

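The count of 0 genes and 0 members past the thresholds held without scaling, with quantile or upper quartile scaling, at pseudocounts of 1 and 0.01, without the variance trend, with the replicate block (0 genes, and no member's call changed), at a fold threshold of 2 or none, at a mean FPKM of at least 1 and in all 6 fits without 1 library. Centring log2 values on the library median gave 1 gene, the replication histone *Hist2h4*. Ratios of mean scaled FPKM, with no test, passed 1.5-fold for 1207 genes lower and 269 higher, and for 7 replication histones, 1 variant histone and 1 Hmg gene. Without scaling the medians became -0.93 for replication histones, -1.09 for variant histones, -0.80 for Hmg genes, -0.86 for histone mRNA processing, -0.80 for chaperones, -0.72 for S phase and -1.19 for Hmgb1 receptors, where the whole table shifted to -0.87, and 12 members turned negative: *Hmgxb3* -0.62, *Hmga1* -0.72, *H2afy* -0.97, *H2afx* -1.04, *Hist1h4m* -0.91, *Hist1h4i* -0.76, *Hist1h2ac* -0.90, *Hist1h2bc* -0.84, *Hist1h2bn* -0.39, *Hist1h2bq* -0.91, *Hist1h3d* -0.93 and *Hist1h2ao* -0.76. With centred log2 values *Hmgxb4* was 0.12, *Hmga1b* 0.11, *H2afy* -0.052, *H2afx* -0.12, *Hist2h3c2* 0.19 and *Hist1h3d* -0.013, and the list medians were 0.055 for mRNA processing and 0.20 for S phase. *H3f3b* was 0.092 with quantile and 0.012 with upper quartile scaling. *Hist1h4c* was 0.0027 at a pseudocount of 1, where chaperones were 0.040, and 0.18 as a ratio of means, where *Hist1h2ap* was 0.0019. The mRNA processing median was -0.25 at a pseudocount of 0.01. At a mean FPKM of at least 1, only *Cpsf3* of that list remained, at -0.22, and only *Tlr2* of the Hmgb1 receptors, at 0.64. Apart from *Hist2h4*, scaling changed directions but no call, and the cause of the changes was not tested.

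Leaving out 1 library at a time gave class medians of -0.15 to 0.19 for replication histones, -0.11 to 0.017 for variant histones and -0.25 to -0.13 for Hmg genes, and turned the direction of members whose groups overlapped: *Hist1h2ao* -0.12 to 0.45, *H2afx* -0.14 to 0.33, *H3f3b* -0.083 to 0.094, *Hist1h2bq* -0.15 to 0.54, *Hist1h3d* -0.12 to 0.19, *Hist1h3i* -0.50 to 0.37, *Hist1h2ac* -0.20 to 0.56, *Hist1h2ap* -0.53 to 0.19, *Hist1h4c* -0.91 to 0.30, *Hist1h1c* -0.60 to 0.058, *Hist1h4n* -0.90 to 0.15, *Hmgxb3* -0.15 to 0.36, *Hist1h4m* -0.023 to 0.41 and *Hmgxb4* -0.36 to 0.069. *Hist2h3c1* ran from -1.02, *Hist2h3c2* from -1.30 and *Hmga1b* from -1.42 to 0, the last when the library with their only value was left out. The mRNA processing median ran from -0.22 to -0.054. FPKM without read totals give no counting error for the low members.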
